A study of Drosophila melanogaster with 2 samples.

Results

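The sites described here are the strong binding sites of 1 ChIP-seq library that did not enter the reproducible peak set of the study. In the replicate 1 list of 30000 entries, the entries with the highest signal value were taken, as many as the reproducible set has peaks, and 1036 of them (17.1%) overlapped no interval of that set by 1 bp or more. The other 5018 overlapped it. All 1036 had different intervals, and they fell into 1028 separate regions once overlapping entries were merged. They were chosen by the replicate 1 signal and, through the reproducible set, by the signals of both replicates and of their pool, so all signal values below are descriptions with no test.

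The study has a library for each of replicates 1 and 3, made from different biosamples of whole Drosophila melanogaster embryos. The embryos were of both sexes and of strain 1T-GFP, collected over 0 to 24 hours. This is 1 transgenic line that expresses Bicoid with green fluorescent protein fused to its C terminus (bcd-eGFP), and the precipitation was with an anti-GFP antibody. There was 1 group and no second genotype, treatment or age, and the control experiment named in the labels was not analysed here. Because embryos of all ages and all tissues were pooled, a site used in few cells and a site weakly bound in many cannot be told apart. Sites of 1 library are not replicates, so shares are given with 95% Wilson intervals, which cover counting error only, and no site set was tested against another. Read counts are not part of the lists, so library depth is unknown.

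Bicoid is a maternal homeodomain protein that forms a gradient from the anterior pole of the early embryo and activates patterning genes there through sites built on the word TAATCC. The irreproducible discovery rate (IDR) procedure ranks the peaks of replicate libraries and keeps those whose ranks agree, and a pooled list supplies the intervals that are kept. A strong peak of 1 library can therefore be missing from an IDR set through its rank in the other library. It can also be missing through its place in the pooled list. In this study every IDR peak had a pooled entry, and no site had a pooled entry stronger than the last IDR peak. An entry in each replicate was not required, as 98.1% of the IDR peaks had one in replicate 1 and 98.2% in replicate 3. Whether replicate ranks had any further part in the set was not tested. Fly promoters of housekeeping genes often carry the word TATCGATA, which is bound by the factor DREF, or the word GGTCACAC, which is part of the site of M1BP. Repeats of GA are bound by GAGA factor at many developmental promoters.

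Reference sequence from 8 of these sites, centred on the word or, where there is none, on the summit, is shown so that the words counted below can be seen in place. Among sites away from annotated untranslated regions and outside 1 arm that is not printed, they are the 4 strongest with TATCGATA, the 2 strongest with GGTCACAC, the strongest with TAATCC and the strongest with no counted word. All are from the plus strand of the RefSeq copy of dm6 (Release 6), and capitals mark the word, which reads as its reverse complement at klar.

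Sfmbt/CG5439, chr2L:13176845-13176922: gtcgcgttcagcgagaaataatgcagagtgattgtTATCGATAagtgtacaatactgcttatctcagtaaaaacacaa
Epg5, chr3R:18759086-18759163: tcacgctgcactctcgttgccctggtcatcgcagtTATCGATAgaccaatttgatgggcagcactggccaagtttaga
trc/CG32221, chr3L:19834314-19834391: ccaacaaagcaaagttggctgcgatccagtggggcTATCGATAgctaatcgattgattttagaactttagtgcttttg
flw/Psf3, chrX:10385866-10385943: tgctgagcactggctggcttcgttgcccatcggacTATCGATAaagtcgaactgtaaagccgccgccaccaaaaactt
beta-PheRS, chr3R:24252690-24252767: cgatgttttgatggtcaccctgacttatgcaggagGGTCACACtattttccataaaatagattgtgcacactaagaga
klar/BORCS6, chr3L:540638-540715: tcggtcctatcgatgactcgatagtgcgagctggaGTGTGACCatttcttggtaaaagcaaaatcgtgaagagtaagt
CG14882/Ttc1, chr3R:16443089-16443164: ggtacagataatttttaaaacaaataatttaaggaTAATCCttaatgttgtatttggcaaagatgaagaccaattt
mrn/CG12301, chr3L:15580610-15580680: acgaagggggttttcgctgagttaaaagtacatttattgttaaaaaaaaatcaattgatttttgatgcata

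The word lay 63 bp from the summit at Sfmbt/CG5439, 74 bp at Epg5, 9 bp at trc/CG32221 and at flw/Psf3, 18 bp at beta-PheRS, 8 bp at klar/BORCS6 and 3 bp at CG14882/Ttc1, so the stretches at Sfmbt/CG5439 and Epg5 end before or start after the summit. All 8 summits were within 500 bp of a transcription start site (TSS), and the stretch at Sfmbt/CG5439 runs into annotated coding sequence.

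The 1036 sites lay mostly low in the strong part of the replicate 1 list. Their ranks ran from 578 to 6050 with a median of 5042, and 826 of them ranked beyond 4000, against 173 beyond rank 2000 and up to 4000 and 37 up to rank 2000. Their signal ran from 61.6 to 293 with a median of 71.7, whereas the 5018 strong entries inside the IDR set ran from 61.5 to 2288 with a median of 120.0. All 1036 shared the highest −log10 q value of the list, 4.16, so the q value does not order them. At the lower limit the last 3 sites were those of Npc2a/Got2 (rank 6047), CG42663 (rank 6049) and CG44286 (rank 6050), each with a signal of 61.6. The first 3 entries below it, at ranks 6055 to 6057, had signals of 61.496, 61.486 and 61.477, lay at IKKepsilon/CG31678, CG6763 and Bsg and overlapped no IDR peak either.

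The replicate 3 library held an entry at 616 of the 1036 sites (59.5%, 56.4 to 62.4%). Over all 30000 entries of the replicate 1 list the share with an overlapping replicate 3 entry was 57.5%. Among the 1036 replicate 1 entries next in rank outside IDR it was 67.3% (64.4 to 70.1%). The replicate 3 entries at the 616 sites had ranks from 1168 to 29362 with a median of 10958, and signals from 19.3 to 242 with a median of 40.0. Only 57 sites (5.50%) met an entry in the equally long top of the replicate 3 list, against 4221 of the 5018 strong entries inside IDR (84.1%). The replicate 3 signal was above the replicate 1 signal at 41 sites.

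The pooled list, called on both replicates together, held an entry at 750 sites (72.4%, 69.6 to 75.0%), against 75.3% for all entries of the replicate 1 list. Among the replicate 1 entries next in rank outside IDR the share was higher, 90.8% (88.9 to 92.4%). The pooled entries at the 750 sites ranked from 6055 to 25638 with a median of 7339, all below the last IDR peak. The pooled signal at these sites ran from 32.1 to 125 with a median of 104. The sites nearest to the IDR limit were NK7.1, a homeobox gene (pooled rank 6055), CG5555/myd (rank 6056) and an intergenic site 3050 bp from CG33912 (rank 6057). Their pooled signals were 125.087, 125.075 and 125.039, and that of the last IDR peak was 125.138. Where both replicates and the pool had an entry, the pooled signal was close to the sum of the replicate signals, with a median ratio of 0.974 over 553 sites and of 1.00 over 4911 entries inside IDR.

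The remaining 286 sites had no pooled entry at all, and they included most of the strongest. None of the 12 sites with the highest replicate 1 signal had a pooled entry except CG14882/Ttc1. By rank, 1 of the 37 sites up to rank 2000 had a pooled entry, 81 of the 173 between ranks 2000 and 4000, and 668 of the 826 beyond rank 4000. The nearest pooled summit was a median of 4436 bp away from these 286 sites, and at 5 of them it was within 500 bp. In 55 of the 286 the replicate 1 signal alone was above the signal of the weakest IDR peak in the pooled list, and over all 1036 sites this held for 58. A strong entry with a pooled entry would mostly rank inside the IDR set and so not be among the sites. The lack of pooled entries among the strongest sites therefore follows at least in part from the rule.

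Of the 286 sites, 223 had no replicate 3 entry either, and 63 had one. The 63 were mostly strong in both libraries. Their median signal was 96.4 in replicate 1 and 89.4 in replicate 3, and 44 of them were in the equally long top of the replicate 3 list, while the lowest replicate 3 signal among them was 19.4. The lowest signal in the pooled list was 28.0, and the lowest sum of the replicate signals at these 63 sites was 83.8. At 49 of the 63 the sum of the replicate signals was above that of the weakest IDR peak in the pooled list. This held for 78 of the 553 sites with an entry in every list. By the rule those 553 have pooled signals below that peak, and the pooled signals were close to the sums. Their lower count therefore follows from the choice of sites and is no comparison. Summits of the 2 replicates lay a median of 27.0 bp apart at the 63 sites. How the pooled list was made is not given in the sources used here, and its part in the missing entries was not tested. The pattern was also present from the side of replicate 3, where 121 of its 809 strong entries outside IDR (15.0%) had no pooled entry.

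**Figure D1:**
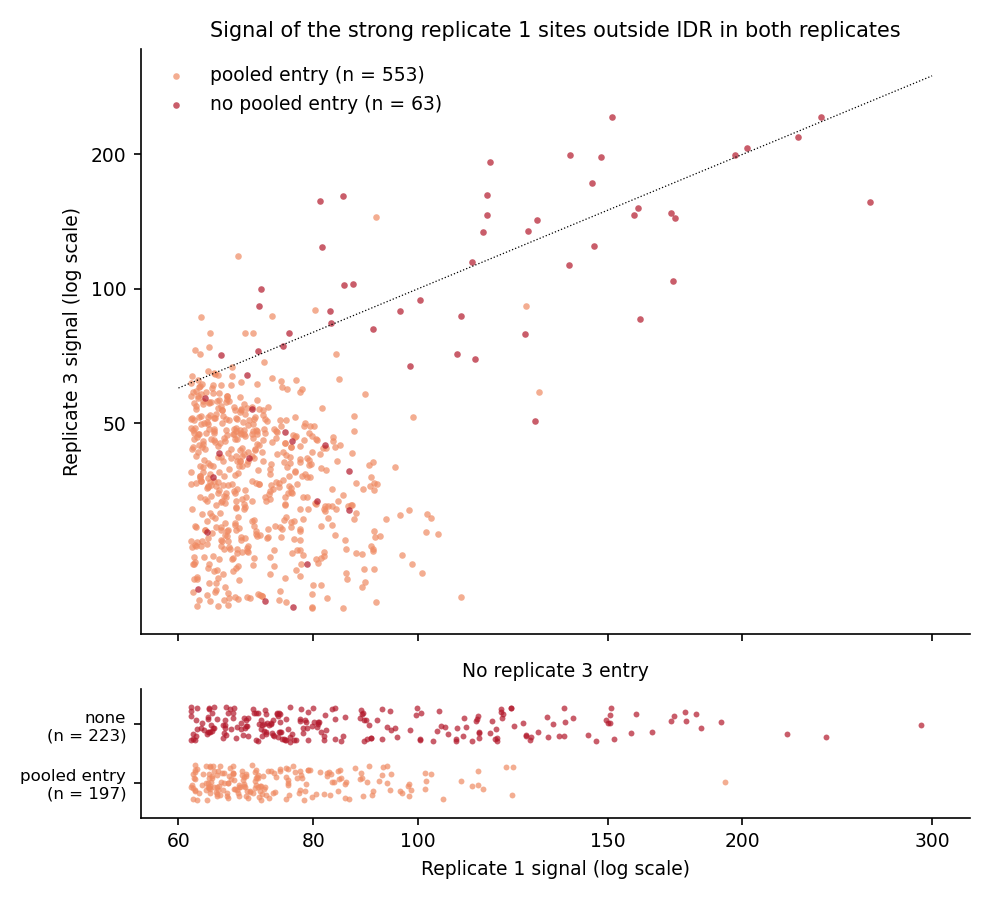
Signal of each of the 1036 sites in replicate 1 (horizontal, log scale) against replicate 3 (vertical, log scale), with the dotted line marking equal values; the lower panel holds the sites with no replicate 3 entry, spread vertically at random for display. The 63 dark points in the upper panel have entries in both replicates and no pooled entry, with medians of 96.4 and 89.4, and lie mostly to the upper right of the 553 sites with a pooled entry. By the rule the 553 have pooled signals below the last IDR peak, so their replicate signals are limited by the choice of sites.

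The site with the highest replicate 1 signal, 293 at rank 578, lay at 2R:14855211-14855509 between HPS1, whose product belongs to a lysosome-related organelle complex, and Ciao1, a gene of cytosolic iron-sulfur protein assembly. It had neither a replicate 3 nor a pooled entry, and the nearest summit of the pooled list was 2365 bp away. Other such sites were at CG43346/CG43345/mAcon1, where mAcon1 encodes mitochondrial aconitase (signal 239), in an intron of GATAd, a GATA-factor gene (219.9), and at CG10931/sub, where sub encodes a kinesin-like protein (183). The site at CG2712/ttm50, with a signal of 181, also had no entry in either list. These 5 sites had a signal value in replicate 1 alone.

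Other sites among the 12 strongest were as high in replicate 3. At Sfmbt/CG5439, where Sfmbt encodes a Polycomb-group protein and the printed stretch holds TATCGATA, the signal was 236 in replicate 1 and 242 in replicate 3. The site of mrn/CG12301, where mrn encodes a subunit of the general factor TFIIH, had 225 and 219. At dpa/didum, the genes of a replicative helicase subunit and of myosin V, the values were 202 and 207. The site at Bcat had 197 and 199. At muskelin/CG33792 replicate 3 was lower, with 156 against 263. None of these 5 had a pooled entry. The nearest pooled summit was 1177 bp to 11663 bp away at 4 of them. At Bcat it was 182 bp away and was the summit of an IDR peak.

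A further 3 sites of this kind, named after their values were seen, were Sry-delta, a zinc finger gene (173 in replicate 1 and 144 in replicate 3), beta-PheRS, a phenylalanyl-tRNA synthetase gene (173 and 104), and Rab8/Usp32 (172 and 148). The site at CG14882/Ttc1, the only one of the 12 strongest with a pooled entry, had a replicate 1 signal of 193, no replicate 3 entry and a pooled signal of 33.9 at rank 24004.

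Entry width went with rank in the replicate 1 list. Of the 1036 sites 48 were narrower than the width of 424 bp that most entries of this list have. Up to rank 2000 this held for 26 of the 37 sites (70.3%) and for 79.2% of the 1963 entries inside IDR. Beyond rank 4000 it held for 0.847% and 3.01%.

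The sites lay near transcription start sites more often than strong entries inside IDR. A summit was within 500 bp of a TSS at 660 of 1036 sites (63.7%, 60.7 to 66.6%), against 2674 of 5018 strong entries inside IDR (53.3%, 51.9 to 54.7%) and 185 of the 809 strong replicate 3 entries outside IDR (22.9%, 20.1 to 25.9%). Beyond rank 4000, where most of the sites are, the shares were 59.0% (55.6 to 62.3%) of the sites and 39.2% (36.5 to 41.9%) of the entries inside IDR. Introns held 248 sites (23.9%, against 33.3% inside IDR) and 93 sites were intergenic (8.98%, against 11.0%). Untranslated regions held 18 sites, noncoding exons 9 and coding exons 8.

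The 286 sites with no pooled entry were almost all at promoters. Of them 254 were near a TSS (88.8%, 84.6 to 92.0%), against 406 of the 750 sites with a pooled entry (54.1%, 50.6 to 57.7%). The share was 84.1% of the 63 with a replicate 3 entry and 90.1% of the 223 without one. Among the 121 strong replicate 3 entries outside IDR with no pooled entry, 82 were near a TSS (67.8%), above the 22.9% of all 809.

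**Figure D2:**
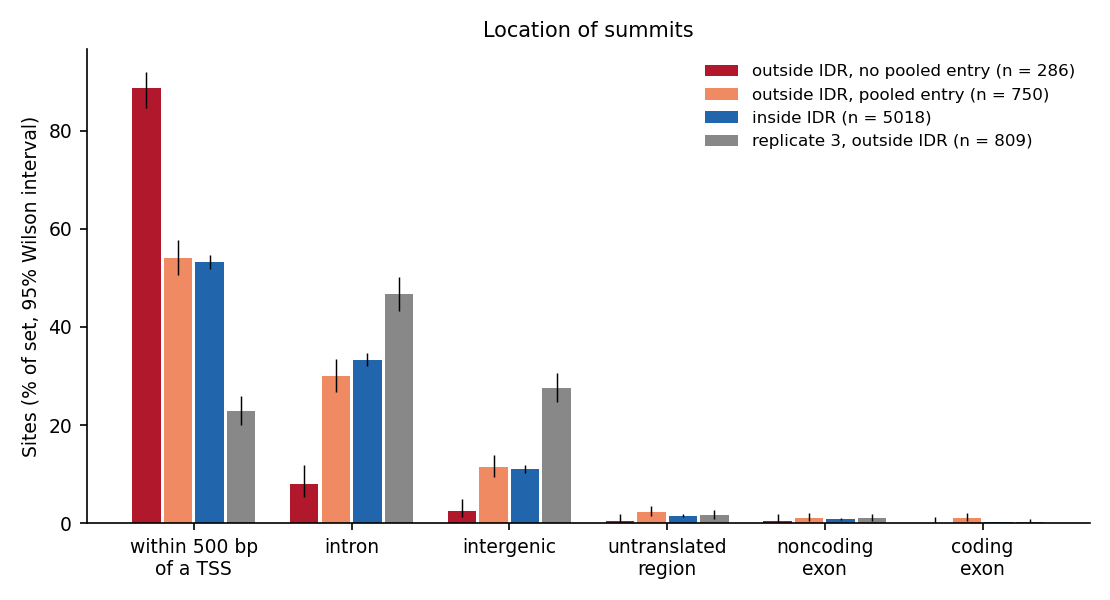
Share of summits in each location class (vertical axis in % of each set, from 0), with 95% Wilson intervals, for the sites without and with a pooled entry, the strong replicate 1 entries inside IDR and the strong replicate 3 entries outside IDR. Of the sites with no pooled entry 88.8% lie within 500 bp of a TSS, and 54.1%, 53.3% and 22.9% of the other sets do.

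The promoter sites were close to the start. Of the 660 near a TSS, 428 were within 100 bp of it (64.8%, 61.1 to 68.4%), against 44.9% (43.0 to 46.8%) of the 2674 inside IDR, and the median distance was 64.5 bp against 115 bp. The replicate 1 entries next in rank outside IDR were about as close, with 61.3% (56.9 to 65.6%) within 100 bp. Up to rank 2000 the shares were 42.4% of the sites and 38.1% inside IDR, with overlapping intervals. They were 72.1% and 49.6% from rank 2001 to 4000, and 64.3% and 53.2% beyond rank 4000. For the 254 sites without a pooled entry the share within 100 bp was 73.6% and the median distance 57.5 bp. The summit lay upstream of the nearest TSS at 75.8% of the sites near one and at 82.8% of those inside IDR. Nearly all were promoters of protein-coding genes, 642 of 660. Coding TSSs on both strands, as at divergent gene pairs, were within 500 bp at 131 of the 254 sites without a pooled entry (51.6%, 45.5 to 57.7%) and at 85 of the 406 with one (20.9%, 17.3 to 25.2%). Inside IDR the share was 34.7% (33.0 to 36.6%).

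**Figure D3:**
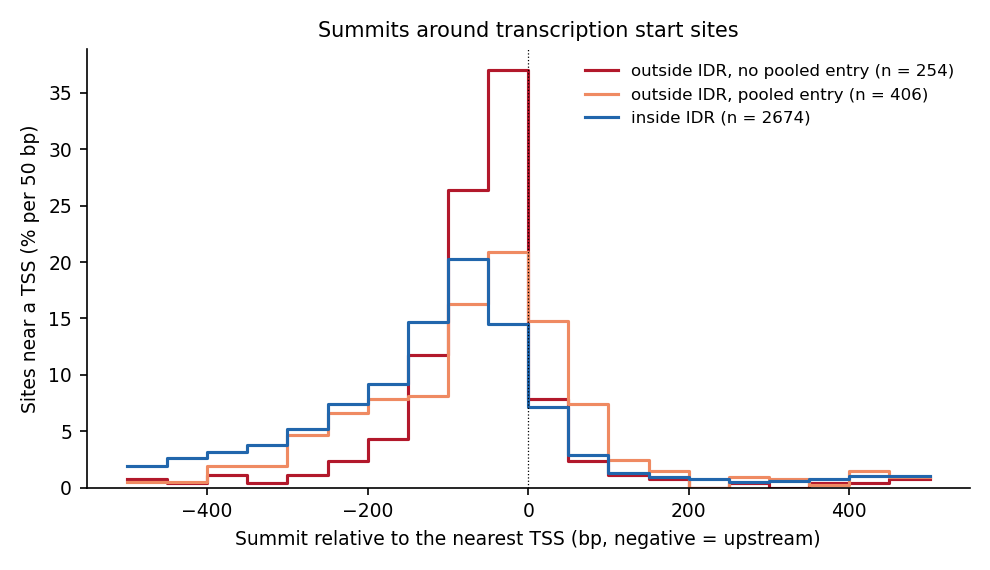
Distance of the summit from the nearest TSS in steps of 50 bp (horizontal, negative is upstream) for the sites near a TSS, as % of each set per step (vertical). The sites with no pooled entry are concentrated in the 50 bp upstream of the TSS, with 37.0% of them there, against 20.9% of the sites with a pooled entry and 14.5% of the entries inside IDR.

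Away from promoters, the strongest intronic sites were in GATAd (219.9, 1091 bp from its TSS), in CG42336 (173) and in sty, which encodes the receptor signalling inhibitor Sprouty (148). The site in sty had a replicate 3 signal of 197 and no pooled entry overlapping it, and the nearest pooled summit, that of an IDR peak, was 213 bp away. The strongest intergenic sites had signals of 132 on 3L, 114 on 2R and 104 on 3L, the last 3108 bp from the pair-rule gene hry. The site with 132 had no pooled entry and lay 215 bp from the summit of an IDR peak. Over all 1036 sites, 115 (11.1%) had an IDR summit within 1000 bp. In untranslated regions the strongest were those of Hex-A, a hexokinase gene (91.1), Atf3, a stress-response factor gene (75.3), and fz, the Frizzled receptor gene (74.6). In noncoding exons they were 2 overlapping entries in lncRNA:CR32636 (98.8 and 77.9) and 1 in lncRNA:CR44619 (85.6). Those in coding exons, in Naprt (70.8), CG11905 (70.5) and PNUTS (70.2), were close to the lower limit.

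In a few cases 1 gene had several sites. The gene Eip75B, an ecdysone-induced nuclear receptor gene, held 5 summits, and brat, a translational repressor gene, and sbb held 4 each. The start sites of Pfrx lay near 3 summits, and 32 protein-coding genes had 2 or more at their start sites.

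The DREF word TATCGATA was more frequent at these sites than at strong entries inside IDR. Within 100 bp of the summit, counting both strands, it was found at 102 of 1036 sites (9.85%, 8.18 to 11.8%), against 226 of 5018 inside IDR (4.50%, 3.96 to 5.11%), 4.15% of the 1036 replicate 1 entries next in rank outside IDR, and 2.10% of the strong replicate 3 entries outside IDR. In windows of the same size 1000 bp to either side of the sites it was at 0.820%. The word was at 98 of the 660 sites near a TSS (14.8%, 12.3 to 17.8%) and at 4 of the other 376, so most of its sites were promoters. Among promoters alone the share inside IDR was 8.15% (7.17 to 9.25%), and it was 6.42% of the 19630 windows centred on all protein-coding TSSs. The copy nearest to the summit was a median of 32.5 bp from it, against 46.5 bp inside IDR, and 9 sites held 2 or more copies.

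Sites without a pooled entry held the DREF word most often, at 47 of 286 (16.4%, 12.6 to 21.2%), against 55 of 750 with a pooled entry (7.33%, 5.68 to 9.42%). Near a TSS the shares were 18.5% and 12.6%, with intervals of 14.2 to 23.7% and 9.68 to 16.1% that overlap. It was at 11 of the 63 sites with a replicate 3 entry and at 36 of the 223 without. Beyond rank 4000 it was at 8.47% of the sites and 3.01% of the entries inside IDR. The strongest sites with the word, named after their values were seen, were Sfmbt/CG5439 (236), CG13751/ana2 (177), where ana2 encodes a centriole duplication protein, Rab8/Usp32 (172) and Epg5, an autophagy gene (159).

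The M1BP word GGTCACAC was at 45 sites (4.34%, 3.26 to 5.76%), against 3.03% inside IDR (2.59 to 3.54%) and 5.67% of coding TSS windows, and at 44 of the sites near a TSS (6.67%, against 5.39% inside IDR), with overlapping intervals in both comparisons. Both words occurred together at 3 sites. The strongest with GGTCACAC were beta-PheRS (173), Ube4B, a ubiquitin ligase gene (134), and indra (129).

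The repeats GAGAGAG and CACACACA and an E-box were more frequent over all 1036 sites than inside IDR. They were about as frequent at the replicate 1 entries next in rank outside IDR. There the shares were 5.31% (4.10 to 6.85%) for GAGAGAG, 5.79% (4.53 to 7.38%) for CACACACA and 11.6% (9.77 to 13.7%) for the E-box. Among the strongest of the sites, where the counts were small, none of these excesses over the entries inside IDR was clear. The GA repeat GAGAGAG was at 65 sites (6.27%, 4.95 to 7.92%), against 3.49% inside IDR (3.01 to 4.03%) and 3.81% of the flanks. The share was 7.47% (5.79 to 9.57%) with a pooled entry and 3.15% (1.66 to 5.87%) without one, with intervals that overlap slightly. With 50% as many of the strongest entries taken, it was 0.971% of 103 sites (0.172 to 5.30%) and 3.45% of the entries inside IDR. The CA repeat CACACACA was at 5.60% of the sites (4.36 to 7.17%), 5.16% of the flanks and 3.41% inside IDR (2.94 to 3.95%). Among the 103 sites it was at 2.91%, against 2.74% inside IDR. The E-box CAGCTG was at 12.7% of the sites (10.8 to 14.9%) and 9.80% inside IDR (9.01 to 10.7%), and among the 103 sites at 7.77%, against 9.30% inside IDR.

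The Bicoid word TAATCC was as frequent beside the sites as in them. It was at 76 sites (7.34%, 5.90 to 9.09%), in 7.00% of the flanking windows, in 7.13% inside IDR and in 6.15% of coding TSS windows. The strongest sites with it were CG43346/CG43345/mAcon1 (239), dpa/didum (202) and CG14882/Ttc1 (193). CAGGTA, which the early activator Zelda recognises, was at 4.05% of the sites and 5.94% of their flanks. TATAAA was at 27.6% (25.0 to 30.4%) and 35.1% inside IDR (33.8 to 36.4%), and the homeodomain word TAATTA at 14.1% (12.1 to 16.3%) and 17.1% (16.0 to 18.1%). None of the 9 words was at 371 sites (35.8%), the same share as inside IDR (35.8%). A match to a word is a description of the sequence and not a bound site.

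**Figure D4:**
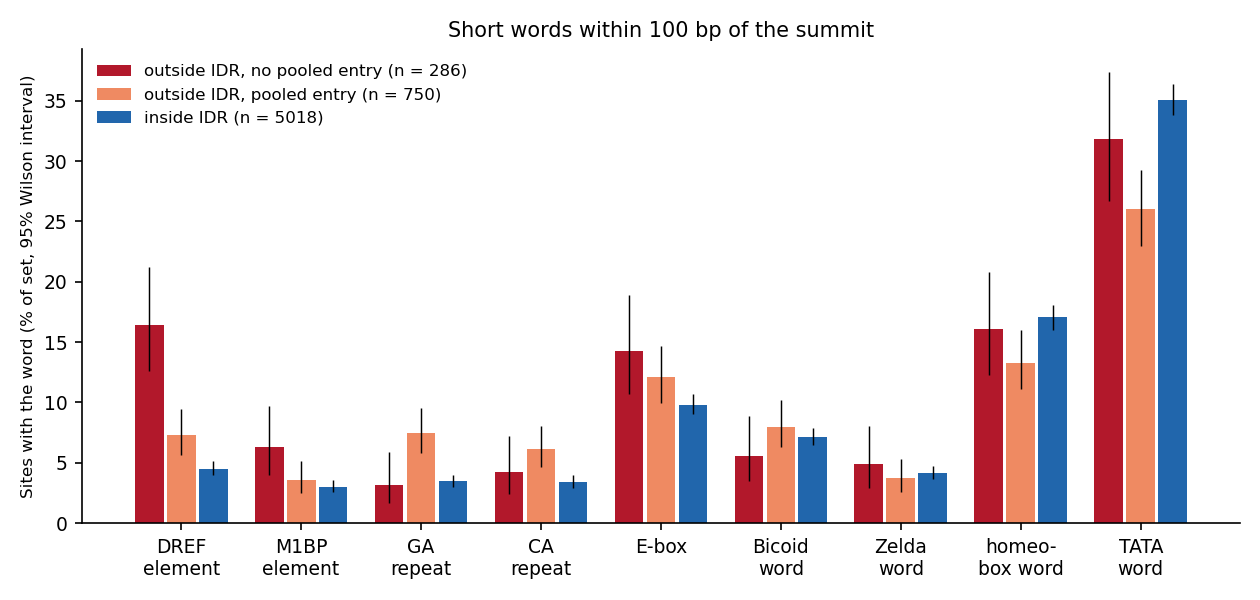
Share of sites with each of 9 short words within 100 bp of the summit (vertical axis in % of each set, from 0), with 95% Wilson intervals, for the sites without and with a pooled entry and for the entries inside IDR. The DREF word is at 16.4%, 7.33% and 4.50% of the sets in that order, and the GA repeat is highest, at 7.47%, at the sites with a pooled entry.

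The summit windows held more G and C than those inside IDR. The GC content was 40.1% ± 8.06 (SD over 1036 sites) against 36.3% ± 7.24 (SD over 5018), and the windows 1000 bp away were at 43.2% and 42.8%. Of the 1036 sites 380 had more GC than their flanks. Sites without a pooled entry were at 38.0% ± 6.45 and those with one at 40.9% ± 8.46.

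Chromosome arm 2R held more of these sites than its share of strong entries. On 2R, 252 of the 1130 strongest replicate 1 entries were outside IDR (22.3%, 20.0 to 24.8%), against 784 of 4924 on all other arms (15.9%, 14.9 to 17.0%). The shares were 16.0% on 2L, 16.8% on 3L, 15.4% on 3R and 15.5% on X. In stretches of 5 Mb along 2R the share was 18.7 to 24.1%, and in those of the other arms with 20 or more strong entries it was 12.4 to 19.4%, so the higher share was not confined to 1 stretch. The arm held 24.3% of the 1036 sites (21.8 to 27.0%) and 29.0% of those without a pooled entry (24.1 to 34.5%). It held 17.0% of the replicate 1 entries next in rank outside IDR and 15.6% of the strong replicate 3 entries outside IDR.

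**Figure D5:**
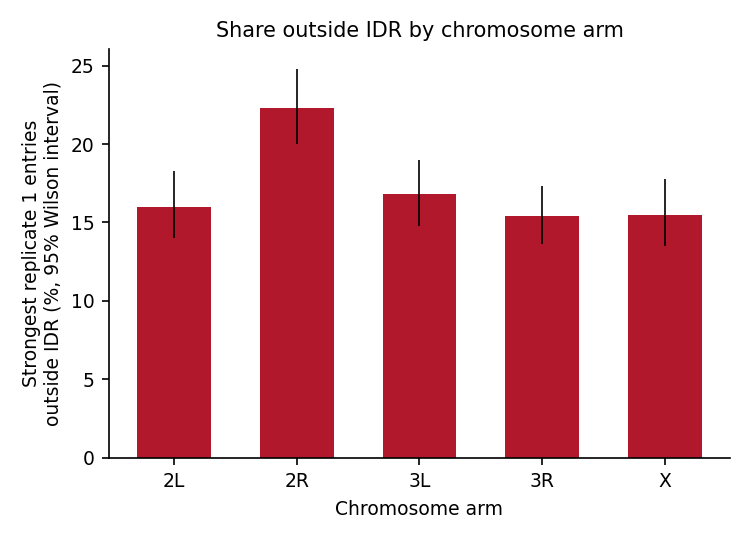
Share of the strongest replicate 1 entries that lie outside IDR (vertical axis in %, from 0) on each large chromosome arm, with 95% Wilson intervals. The share is 22.3% on 2R and 15.4 to 16.8% on the other 4 arms.

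Of 13968 protein-coding genes, 842 (6.03%) had one of these sites within 500 bp of a TSS and 3215 (23.0%) had an IDR summit there, with 87 genes in both sets. The gene lists below are read against these shares and were not tested. A site counted for a listed gene can lie nearer to a TSS of another gene, as at Snr1/mRpL44, EMC1/Taf7, flw/Psf3 and asRNA:CR43957/ci. A site overlaps no IDR interval by the rule, so a gene with an IDR summit at a TSS could seldom have a site too. A low count in a list with many IDR summits is therefore not read as a shortage of sites.

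Genes for protein synthesis and turnover differed from list to list. Of 93 cytoplasmic ribosomal protein genes, which make the subunits of the ribosome, 78 had an IDR summit at a TSS. This left few open to a site, and 1 had a site, RpL29 (signal 132). Of 73 mitochondrial ribosomal protein genes 6 did (8.22%), led by mRpL44, mRpL47 and mRpL43 (126, 107 and 82.0), and 5 of the 6 sites had no pooled entry. Of 54 translation factor genes 3 did, eIF3f1 (127), eIF3b (86.8) and eEF1alpha1 (80.5). Of 33 aminoacyl-tRNA synthetase genes listed by the form of their symbols, which charge transfer RNAs, 2 did, ArgRS (89.7) and MetRS (81.8). The list does not hold beta-PheRS (173) and alpha-PheRS, which also had sites and were noticed after their values were seen, and the mitochondrial list likewise does not hold tko (80.7). The proteasome list had 1 of 37, Rpt5, whose site beside RanBP3 had 113 in replicate 1, 69.7 in replicate 3 and no pooled entry. The heat shock list had 1 of 19, Hsp110 (96.2).

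In the lists of energy metabolism the counts were small. Of 87 genes of the respiratory chain and ATP synthase 9 had a site (10.3%), and 6 of the 9 had no pooled entry. The strongest, with 159, was shared by COX8, a cytochrome c oxidase subunit gene, and VhaM9.7-b, a proton pump subunit gene, and had neither a replicate 3 nor a pooled entry. It was followed by ND-20 of complex I (83.9) and SdhD of complex II (83.2). Of 33 vacuolar ATPase genes 4 had a site, VhaM9.7-b, VhaSFD (99.9), Vha68-2 (74.7) and VhaAC45 (71.9).

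The Rab GTPases, switches of vesicle traffic, had the highest share among the lists of over 10 genes, 8 of 38 (21.1%), and 11 others had an IDR summit at a TSS. Rab8 led with 172 in replicate 1 and 148 in replicate 3. The others were Rab2 (85.7), Rab30 (80.8), Rab21 (78.0), Rab26 (74.5), Rab32 (65.3), Rab27 (64.8) and Rab7 (62.2). The sites of Rab8, Rab2, Rab30, Rab21, Rab27 and Rab7 also lay within 500 bp of a TSS of another gene. At Rab2, Rab30 and Rab27 the nearest TSS was that of the other gene, Mob4, Caper and mei-38. At Rab8, Rab2, Rab30 and Rab21 there was no pooled entry. The list of exocyst, COPI and COPII genes, also of vesicle traffic, had 1 of 27, Sec8 (74.0), and 16 with an IDR summit.

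The lists of transcription and replication had 0 to 2 genes with a site each. The Mediator list had 1 of 25 (MED28, 76.5) and the TAF list 1 of 16 (Taf7, 89.0). The list of replication genes had 2 of 29 (Psf3, 112, and PolA2, 75.4, without counting dpa, which the list does not hold). The list of insulator and promoter factors had 0 of 15, and 8 of these genes had an IDR summit at a TSS.

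The lists of developmental genes were short and differed. None of 23 Bicoid target genes had a site at a TSS, and 5 had an IDR summit. Of 8 homeotic genes 1 did, Antp, with 62.1 in replicate 1, 73.0 in replicate 3 and a pooled signal of 124 at rank 6111, just below the IDR limit. Of 10 segment polarity genes 3 did. The site at ci, the effector gene of Hedgehog signalling on chromosome 4, had 109 in replicate 1 and no other entry. That at wg, the Wingless ligand gene, had 77.7 in replicate 1, 41.1 in replicate 3 and 114 in the pool, and that at inv had 66.6, 28.0 and 81.7. No cuticle protein gene (0 of 70) and no odorant or gustatory receptor gene (0 of 119) had a site, nor an IDR summit, at a TSS.

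Of 290 transfer RNA genes 10 (3.45%) had one of the sites near their start, and these 10 genes shared 6 sites because clustered genes lie within 500 bp of the same summit. The strongest were at tRNA:Thr-AGT-1-2 (122 in replicate 1, no replicate 3 entry, 116 in the pool) and at tRNA:Ser-TGA-2-1 and tRNA:Ser-TGA-1-1 (86.0, 22.4 and 111). All 6 had a pooled entry. One site between the U6 spliceosomal genes snRNA:U6:96Ac and snRNA:U6:96Ab, with 137 in replicate 1 and no other entry, made up the 2 of 32 in the small nuclear RNA list. Of 3289 noncoding RNA genes 41 (1.25%) had a site, among them 4 of 260 microRNA genes, mir-9370 (66.2), mir-9373 (65.3), mir-276a (63.4) and mir-11182 (62.2). Of 253 small nucleolar RNA genes none had a site, and 13 had an IDR summit.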

How the data were processed

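The authors made narrowPeak lists on dm6 and dm3 for each replicate, for the pooled replicates and for an IDR-thresholded optimal set, per the deposited file descriptions. For each peak the authors deposited a signal value, on a scale the files do not state, a −log10 q value and a summit offset. Which peak caller and aligner were used is not given in the sources used here. Without read counts the precision that depth gives is unknown, and the signal was used only to describe and rank.

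The members and the 23 gene lists were chosen with earlier results of these data known. Entries were ranked by signal, and the strongest of replicate 1, as many as there are IDR peaks, were split by an overlap of 1 bp with IDR intervals, each paired with the strongest overlapping entry of the other lists. Summits within 500 bp of a TSS were called near TSS, and the others went, in this order, to coding exons, to untranslated regions, to noncoding exons, to introns or to intergenic sequence, with Ensembl BDGP6.54 (release 115) without transposable elements. Coordinates are dm6, counted from 1, and the RefSeq sequence is of the same assembly. The 9 words were matched exactly on both strands within 100 bp of the summit and in windows of the same size centred 1000 bp away, and overlaps between words were kept. The named genes are those of the 12 strongest sites, the 3 strongest of each location class and gene list, the 5 strongest with neither other entry, and the 3 on either side of each limit, with others marked as chosen after their values were seen, and 1 site that the rule names is not reported here. Intervals are Wilson intervals at 95% (scipy 1.17.1, Python 3.11.15). The overlap, word and location steps were tested on simulated data. No site set was tested against another. The alternatives changed the overlap, the number of strongest entries, duplicates, the build, summit distance, TSS distance and biotype, and window size.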

Additional observations from a re-analysis of the deposited data

How the results depend on the processing

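Depth cannot be read from the lists, so a site absent from the replicate 3 list may lie below that list's limit, and only 2 libraries were at hand. Leaving out replicate 1 leaves no sites and leaving out replicate 3 leaves no IDR set, so neither gives a value. Of the 85 values recomputed for the main results, 45 stayed within the interval, the spread or 1.5 times the main value. The shares inside IDR were recomputed only for the number of strongest entries. Which sites count as outside IDR mattered. With 50% as many of the strongest entries taken, 103 sites remained outside IDR. Of these 31.1% had a replicate 3 entry, 11.7% a pooled entry and 88.3% a TSS nearby. Their word shares were 15.5% for TATCGATA, 32.04% for TATAAA, 20.4% for TAATTA, 0.971% for GAGAGAG, 2.91% for CACACACA and 7.77% for CAGCTG. Of these, GAGAGAG and CAGCTG were then below and TAATTA above the shares inside IDR (3.45%, 9.30% and 17.6%), differences that 103 sites do not resolve. Of the 1644 listed genes, 13 in place of 60 had a site. With 0.5 of the entry covered by IDR intervals as the limit, 1615 sites were outside, of which 73.6% had a replicate 3 entry, 82.3% a pooled entry, 56.2% a TSS nearby and 7.24% the word TATCGATA. With the summit as the limit 62.98% had a replicate 3 entry. In the dm3 lists 67.1% had a pooled entry. Requiring summits within 100 bp gave 44.02% for replicate 3 and 68.9% for the pool. A TSS lay within 250 bp of 56.8% and within 1000 bp of 73.3% of the sites. Word shares follow the window by construction. With 50 bp on either side they were 6.27% for TATCGATA, 2.03% for GGTCACAC, 13.4% for TATAAA, 5.89% for TAATTA, 3.96% for TAATCC, 2.32% for CAGGTA and for CACACACA, 2.12% for GAGAGAG and 7.05% for CAGCTG. With 200 bp they were 13.2% for TATCGATA, 6.08% for GGTCACAC, 47.97% for TATAAA, 27.1% for TAATTA, 11.97% for TAATCC, 9.17% for CAGGTA, 11.8% for CACACACA, 10.04% for GAGAGAG and 22.9% for CAGCTG. Of 46 recomputed counts for single gene lists 26 were within 1.5 times the main count. The cause of the other shifts was not tested.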
